A study of Arabidopsis with 8 samples.

Results

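Messenger RNA of 33 genes of the plant cell division cycle was followed in roots and shoots of Arabidopsis seedlings that overexpress SAUR41 and of the Col-0 wild type. The genes are 9 B-type cyclins, 6 A-type cyclins, 10 D-type cyclins, the kinase CDKA;1, 4 kinases of the CDKB class, and KNOLLE, CDC20.1 and AUR1, which act in mitosis and cytokinesis. They were chosen by locus as members of these classes, out of 25404 genes that at least 1 library listed. Of the 33 genes, 31 were listed in all 8 libraries, and 32 had at least 1 FPKM (fragment values per transcript length and library size) in at least 2 libraries and were tested. The gene left untested was CYCD7;1, with no root library that listed it.

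The libraries fall in 4 groups of 2, all from seedlings aged 5 days: roots of the overexpression line OE-SAUR41, roots of Col-0, the shoot part of OE-SAUR41 and the shoot part of Col-0. SAUR41 belongs to the SMALL AUXIN UP RNA family, whose members are known from auxin-regulated growth. Neither the promoter behind SAUR41, the number of transgenic lines nor the number of seedlings per library is given in the labels, and whether replicate libraries stem from different cultures is not given either. The p-values therefore measure the spread between these libraries, which may be technical.

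Cyclins are the regulatory subunits of cyclin-dependent kinases, and the type of cyclin goes with the phase of the cycle. D-type cyclins bind CDKA and start the passage from G1 into S phase by inactivating the retinoblastoma protein, A-type cyclins act from S phase to mitosis, and B-type cyclins act at the entry into mitosis, where the plant-specific CDKB kinases work too. In seedlings most divisions take place in the root tip, the shoot apex and young leaves, including the stomatal lineage, and cells that leave the cycle often go on to endoreduplication.

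SAUR41 itself stood at 7996 and 4670 FPKM in OE-SAUR41 roots, against 4.64 and 7.46 FPKM in Col-0 roots, and at 10675 and 10248 FPKM in OE-SAUR41 shoots, against 4.93 and 8.29 FPKM in Col-0 shoots. Tissue labels matched their markers. Root hair genes RHD6 and EXPA7 were at 7.63 to 24.1 FPKM in the root libraries, against 0.0757 FPKM or less in the shoot libraries. Summed FPKM of 5 genes of green tissue was 62.2 to 93.0 in the root libraries, against 20601 to 37474 in the shoot libraries. A sum of 3 root meristem genes (PLT1, PLT2 and WOX5) was 12.7 to 13.9 in the root libraries, against 0.830 FPKM or less in the shoot libraries. The summed FPKM of all genes was 605751 to 774506 per library, and the number of reads behind the values is unknown. The Col-0 shoot libraries stood apart from each other: 29.1% of all genes differed at least 2-fold between them, against 1.27% to 2.04% in the other 3 groups, on log2(FPKM + 1). Among the members, the value of Col-0 shoot 1 was above that of Col-0 shoot 2 in 31 of 32, by a median of 0.62 on the log2 scale, against 0.50 over all genes tested. Col-0 shoot 1 was the highest of the 4 shoot libraries in 28 of 32 members (87.5%), against 66.6% of all genes, and it was at least 2-fold above Col-0 shoot 2 in 7 of 32 (21.9%), against 28.0% of all genes. Counts and medians that rest on the Col-0 shoots are given below with and without each of these libraries.

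**Figure D1:**
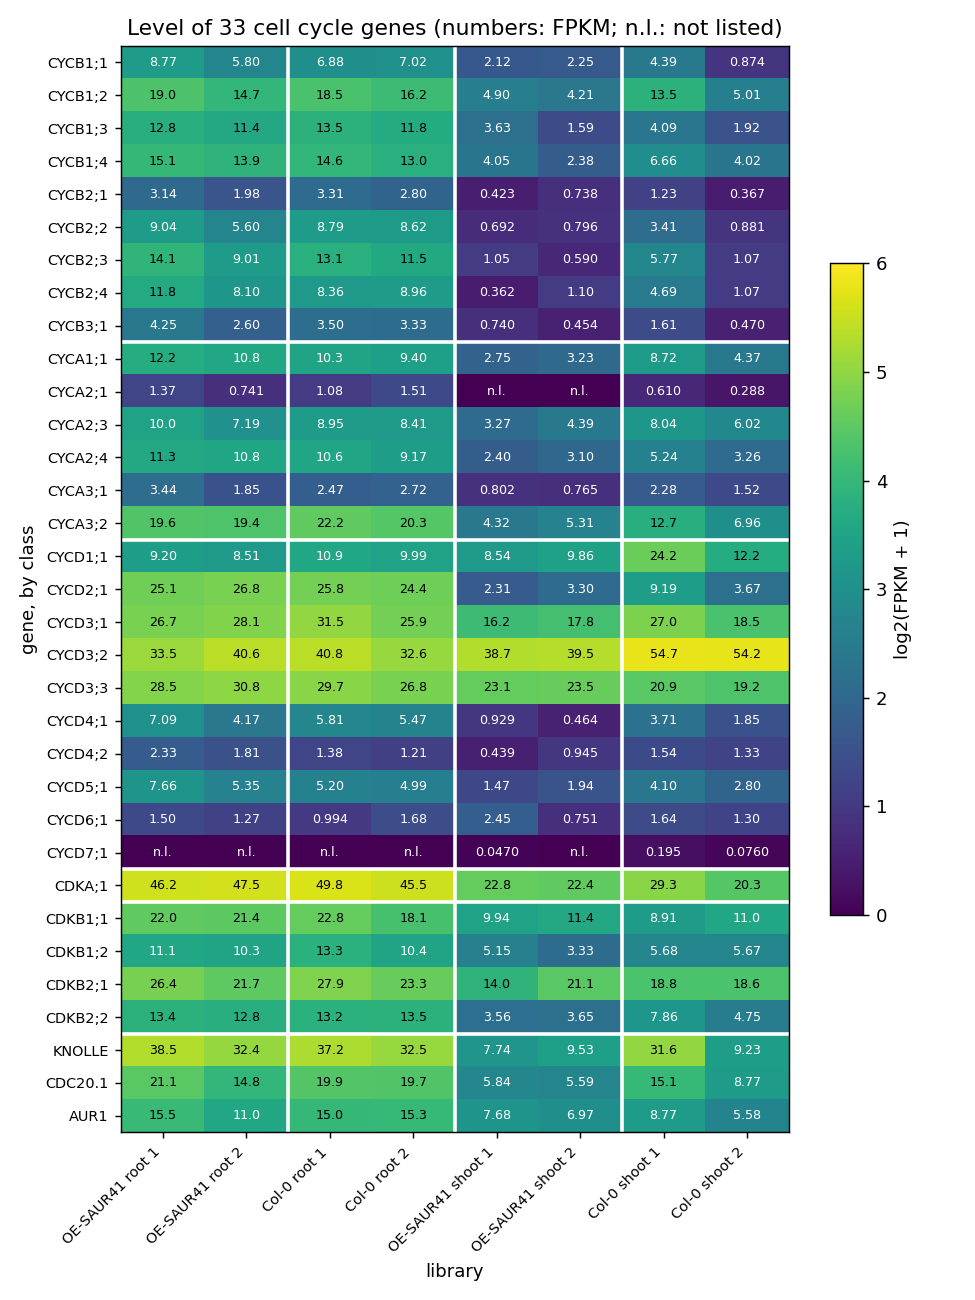
FPKM of the 33 genes (rows, grouped by class) in the 8 libraries (columns, OE-SAUR41 left of Col-0 within roots and within shoots), with colour on the log2(FPKM + 1) scale (brighter is higher) and "n.l." where a file does not list the gene. The B-type rows are brighter in the 4 root columns than in the 4 shoot columns, and within the shoots the column of Col-0 shoot 1 stands out from that of Col-0 shoot 2.

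In roots the most abundant member was the kinase gene CDKA;1 (AT3G48750, chromosome 3, 18071536 to 18074641 in TAIR10), with 46.2 and 47.5 FPKM in OE-SAUR41 roots and 49.8 and 45.5 FPKM in Col-0 roots. In the 4 shoot libraries the most abundant was CYCD3;2 (AT5G67260, chromosome 5, 26836148 to 26837811), a D-type cyclin known from cytokinin-promoted division in young leaves. It was also the most abundant cyclin in each root library, where it stood at 33.5 and 40.6 FPKM in OE-SAUR41 and at 40.8 and 32.6 FPKM in Col-0. Because FPKM is scaled to length, these levels may be set side by side between genes.

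The make-up of the set was not alike in the tissues, though no test was made of these shares. D-type cyclins held 28.8% and 33.3% of the members' summed FPKM in OE-SAUR41 roots and 30.6% and 29.8% in Col-0 roots, against 46.5% and 46.1% in OE-SAUR41 shoots and 41.3% and 48.5% in Col-0 shoots. B-type cyclins held 19.9% and 16.5% in OE-SAUR41 roots and 18.2% and 18.7% in Col-0 roots, against 8.88% and 6.63% in OE-SAUR41 shoots and 12.7% and 6.61% in Col-0 shoots. The 4 root libraries thus lay above the 4 shoot libraries in the B-type share and below them in the D-type share, with no overlap. The CDKB share overlapped between the tissues, at 14.6% to 15.5% in the roots, against 11.6% to 18.5% in the shoots. As these are whole organs, a smaller number of dividing cells and less of the transcript per cell cannot be told apart here.

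**Figure D2:**
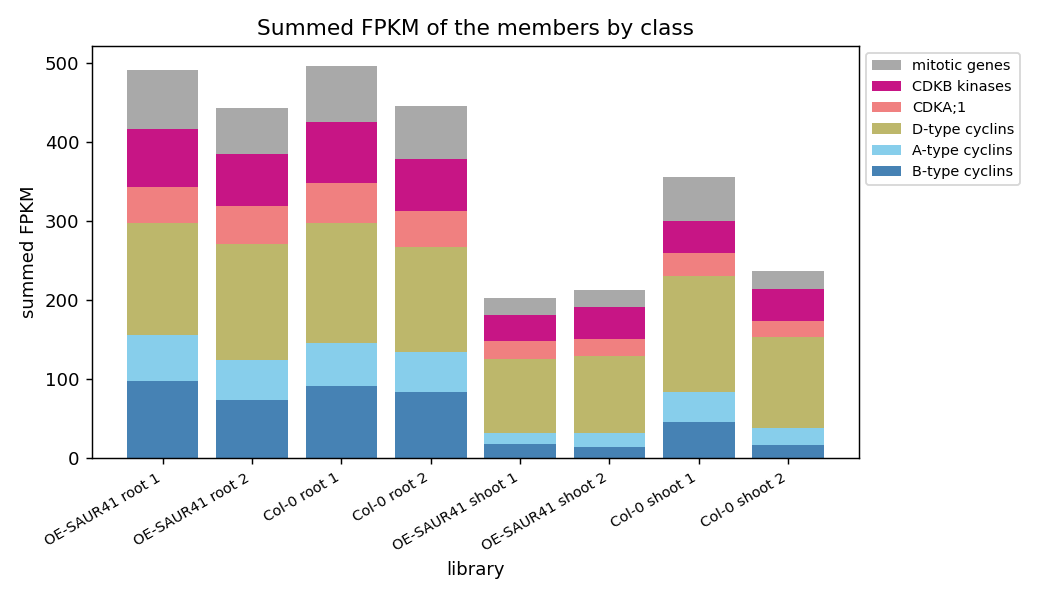
Stacked bars of the summed FPKM (vertical axis) of each class of genes (colours) in each of the 8 libraries (horizontal axis). The 9 B-type cyclins sum to 73.1 to 98.0 FPKM in roots, against 14.1 to 45.3 FPKM in shoots, and Col-0 shoot 1 is the tallest bar among the shoots.

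On the deposited scale, most of the division genes were higher in roots than in shoots, and so were most of all genes tested. In OE-SAUR41, 27 of 32 members were higher in roots and 0 were lower, where 66.0% of all genes were higher in roots and 11.8% lower. In Col-0, 18 of 32 members were higher in roots and 1 was lower, where 52.7% of all genes were higher and 13.2% lower. Root against shoot was tested within each genotype with limma on log2(FPKM + 1), with p-values adjusted by Benjamini-Hochberg over all 19863 genes tested, and a gene was called at an adjusted p under 0.05. All adjusted p-values below are of this kind. Taken over all genes, the median of root over shoot was, on the log2 scale, 1.22 in OE-SAUR41 and 0.91 in Col-0. The members' medians were 1.40 in OE-SAUR41 and 0.95 in Col-0. Relative to all genes these are 0.19 in OE-SAUR41, which became 0.0096 without OE-SAUR41 root 1, and 0.04 in Col-0. The Col-0 median was 1.20, or 0.004 relative to all genes, without Col-0 shoot 1, and 0.53, or -0.06 relative to all genes, without Col-0 shoot 2. In 24 of 32 members (75.0%) all 4 root libraries lay above all 4 shoot libraries, against 62.1% of all genes, and in 0 members did all 4 shoot libraries lie above all 4 root libraries, against 13.4% of all genes. Of the 32, CYCB2;1, CYCB2;2, CYCB3;1 and CYCA2;1 had under 2 shoot libraries at 1 FPKM and passed the filter on low values through their roots, so for them a root excess was built in.

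The classes are given apart here, as a description with no test between them. All 9 B-type cyclins were higher in roots in OE-SAUR41 and 8 of 9 in Col-0, with a median log2 fold change of 1.90 in OE-SAUR41 and 1.32 in Col-0, which is 0.69 above the median of all genes in OE-SAUR41 and 0.41 above it in Col-0. Leaving out the 3 that passed the filter through their roots, 6 of 6 were higher in OE-SAUR41 with a median of 1.91, and 5 of 6 in Col-0 with a median of 1.41. Of the 9 D-type cyclins tested, 5 were higher in roots in OE-SAUR41, and in Col-0 2 were higher and 1 lower, with medians of 0.66 in OE-SAUR41 and 0.34 in Col-0, or, relative to the median of all genes, -0.55 in OE-SAUR41 and -0.57 in Col-0. Over the 21 ways of processing tried, the B-type median relative to all genes was 0.37 to 1.08 in OE-SAUR41 and 0.22 to 0.89 in Col-0, and the D-type one was -0.89 to -0.33 in OE-SAUR41 and -0.79 to -0.28 in Col-0. The B-type ranges were taken without leaving out the 3 that passed the filter through their roots. A-type cyclins were higher in roots in 6 of 6 in OE-SAUR41 and 3 of 6 in Col-0, CDKB kinases in 3 of 4 in each genotype, and the 3 mitotic genes in 3 of 3 in OE-SAUR41 and 1 of 3 in Col-0. All these counts stand beside 66.0% of all genes called higher in OE-SAUR41 roots and 52.7% in Col-0 roots. Relative to all genes, the A-type median was 0.12 in OE-SAUR41 and -0.29 in Col-0. The CDKB one was -0.14 in OE-SAUR41 and 0.04 in Col-0, and the mitotic one 0.26 in OE-SAUR41 and 0.06 in Col-0.

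Scaling bears on these directions. TMM scaling, which aligns the bulk of genes between libraries, brought the median of all genes to 0.12 in OE-SAUR41 and 0.09 in Col-0. With it, the share of calls that were higher in roots was 52.2% over all genes in OE-SAUR41, against 84.8% on FPKM, and 48.2% in Col-0, against 80.0% on FPKM. Under TMM scaling, 6 members were higher in roots and 6 lower in OE-SAUR41, where 28.1% of all genes were higher and 25.8% lower, and 2 were higher and 3 lower in Col-0, where 20.3% of all genes were higher and 21.8% lower. Quantile normalization gave 7 higher and 3 lower in OE-SAUR41, where 32.5% of all genes were higher and 22.9% lower, and 5 higher and 3 lower in Col-0, where 28.4% were higher and 21.8% lower. Each called member whose sign turned under one of these scalings is named as such below.

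**Figure D3:**
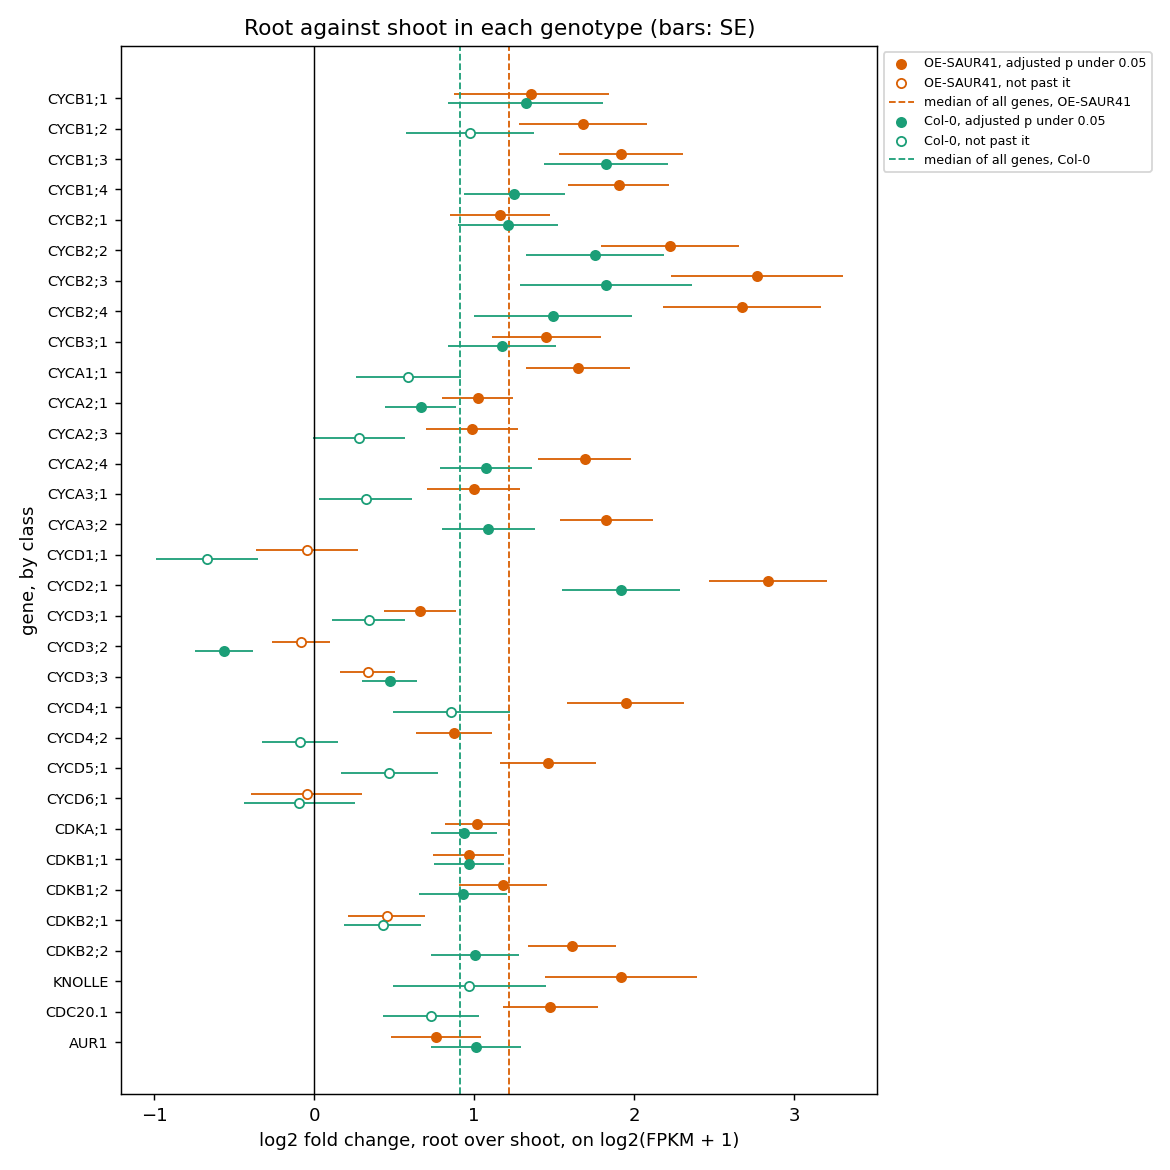
Log2 fold change of root over shoot on log2(FPKM + 1) for each tested member (rows, grouped by class) in OE-SAUR41 and in Col-0, with bars of 1 SE from limma, filled points for called genes and the median of all genes in each genotype as a dashed line. B-type cyclins lie mostly right of the line of their genotype, and 6 of the 9 D-type cyclins in OE-SAUR41 and 8 of 9 in Col-0 lie left of it.

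Among the B1 cyclins, CYCB1;1 (AT4G37490, chromosome 4, 17621886 to 17624285), whose promoter is widely used to mark cells in G2 and mitosis, had 8.77 and 5.80 FPKM in OE-SAUR41 roots and 6.88 and 7.02 FPKM in Col-0 roots, against 2.12 and 2.25 FPKM in OE-SAUR41 shoots and 4.39 and 0.874 FPKM in Col-0 shoots. The log2 fold change of root over shoot was 1.36 (SE 0.48, adjusted p = 0.0333) in OE-SAUR41 and 1.32 (SE 0.48, adjusted p = 0.0430) in Col-0. The OE-SAUR41 value under quantile normalization was -0.00013. All root libraries were above all shoot libraries, and the 2 Col-0 shoot libraries lay on either side of both OE-SAUR41 shoots. CYCB1;2 had 19.0 and 14.7 FPKM in OE-SAUR41 roots and 18.5 and 16.2 FPKM in Col-0 roots, against 4.90 and 4.21 FPKM in OE-SAUR41 shoots and 13.5 and 5.01 FPKM in Col-0 shoots. It was higher in roots in OE-SAUR41, by 1.68 (SE 0.40, adjusted p = 0.00667), and was the B-type cyclin that was not called in Col-0, at 0.97 (SE 0.40, adjusted p = 0.0628), where the first shoot library stood near the roots. CYCB1;3 had 12.8 and 11.4 FPKM in OE-SAUR41 roots and 13.5 and 11.8 FPKM in Col-0 roots, against 3.63 and 1.59 FPKM in OE-SAUR41 shoots and 4.09 and 1.92 FPKM in Col-0 shoots. Its changes of 1.92 (SE 0.39, adjusted p = 0.00329) in OE-SAUR41 and 1.82 (SE 0.39, adjusted p = 0.00521) in Col-0 were alike, and the Col-0 call held in 20 of the 21 ways of processing. CYCB1;4 had 15.1 and 13.9 FPKM in OE-SAUR41 roots and 14.6 and 13.0 FPKM in Col-0 roots, against 4.05 and 2.38 FPKM in OE-SAUR41 shoots and 6.66 and 4.02 FPKM in Col-0 shoots, a log2 fold change of 1.90 (SE 0.32, adjusted p = 0.00138) in OE-SAUR41 and 1.25 (SE 0.32, adjusted p = 0.0110) in Col-0. These 4 genes encode mitotic cyclins of the same subfamily, and in none of them did a shoot library reach the lowest root library.

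The B2 cyclins had wider differences. CYCB2;3 (AT1G20610, chromosome 1, 7134790 to 7137781) had 14.1 and 9.01 FPKM in OE-SAUR41 roots and 13.1 and 11.5 FPKM in Col-0 roots, against 1.05 and 0.590 FPKM in OE-SAUR41 shoots and 5.77 and 1.07 FPKM in Col-0 shoots. Root over shoot was 2.77 (SE 0.54, adjusted p = 0.00278) in OE-SAUR41 and 1.83 (SE 0.54, adjusted p = 0.0202) in Col-0 on the log2 scale. CYCB2;4 (AT1G76310, chromosome 1, 28628046 to 28630394) had 11.8 and 8.10 FPKM in OE-SAUR41 roots and 8.36 and 8.96 FPKM in Col-0 roots, against 0.362 and 1.10 FPKM in OE-SAUR41 shoots and 4.69 and 1.07 FPKM in Col-0 shoots, with changes of 2.67 (SE 0.50, adjusted p = 0.00226) in OE-SAUR41 and 1.49 (SE 0.50, adjusted p = 0.0310) in Col-0. Both genes were called in OE-SAUR41 in all 21 ways of processing, and so was CYCB2;2, for which the filter built in a root excess. The last of these had 9.04 and 5.60 FPKM in OE-SAUR41 roots and 8.79 and 8.62 FPKM in Col-0 roots, against 0.692 and 0.796 FPKM in OE-SAUR41 shoots and 3.41 and 0.881 FPKM in Col-0 shoots, with changes of 2.22 (SE 0.43, adjusted p = 0.00277) in OE-SAUR41 and 1.75 (SE 0.43, adjusted p = 0.0100) in Col-0. In all 3 genes the first Col-0 shoot library was more than 3-fold the second in FPKM, and still below each root library. CYCB2;1 was low, at 3.14 and 1.98 FPKM in OE-SAUR41 roots and 3.31 and 2.80 FPKM in Col-0 roots, against 0.423 and 0.738 FPKM in OE-SAUR41 shoots and 1.23 and 0.367 FPKM in Col-0 shoots. Its changes were 1.16 (SE 0.31, adjusted p = 0.0107) in OE-SAUR41, where the sign turned under quantile normalization, and 1.21 (SE 0.31, adjusted p = 0.0120) in Col-0. CYCB3;1, a B-type cyclin of a subfamily of its own, had 4.25 and 2.60 FPKM in OE-SAUR41 roots and 3.503 and 3.33 FPKM in Col-0 roots, against 0.740 and 0.454 FPKM in OE-SAUR41 shoots and 1.61 and 0.470 FPKM in Col-0 shoots. It was higher in roots by 1.45 (SE 0.34, adjusted p = 0.00611) in OE-SAUR41 and 1.17 (SE 0.34, adjusted p = 0.0191) in Col-0. For CYCB3;1 and CYCB2;1, too, the filter built in a root excess.

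D-type cyclins went several ways. CYCD2;1 (AT2G22490, chromosome 2, 9553803 to 9556145), known from sugar-responsive division and from lateral root formation, had 25.1 and 26.8 FPKM in OE-SAUR41 roots and 25.8 and 24.4 FPKM in Col-0 roots, against 2.31 and 3.30 FPKM in OE-SAUR41 shoots and 9.19 and 3.67 FPKM in Col-0 shoots. Root over shoot was 2.84 (SE 0.37, adjusted p = 0.000440) in OE-SAUR41 and 1.92 (SE 0.37, adjusted p = 0.00328) in Col-0 on the log2 scale. It was the member called in both genotypes in all 21 ways of processing. CYCD3;2 was the member called lower in roots. Besides the root levels above, it had 38.7 and 39.5 FPKM in OE-SAUR41 shoots and 54.7 and 54.2 FPKM in Col-0 shoots, and root over shoot was -0.08 (SE 0.18, adjusted p = 0.693) in OE-SAUR41 and -0.56 (SE 0.18, adjusted p = 0.0284) in Col-0. The OE-SAUR41 libraries overlapped between the tissues, and those of Col-0 did not. Under TMM scaling and under quantile normalization it was called lower in roots in both genotypes. Its 2 close relatives are also known from division in young leaves. CYCD3;1 (AT4G34160) had 26.7 and 28.1 FPKM in OE-SAUR41 roots and 31.5 and 25.9 FPKM in Col-0 roots, against 16.2 and 17.8 FPKM in OE-SAUR41 shoots and 27.0 and 18.5 FPKM in Col-0 shoots, and CYCD3;3 (AT3G50070) had 28.5 and 30.8 FPKM in OE-SAUR41 roots and 29.7 and 26.8 FPKM in Col-0 roots, against 23.1 and 23.5 FPKM in OE-SAUR41 shoots and 20.9 and 19.2 FPKM in Col-0 shoots. AT4G34160 was higher in roots in OE-SAUR41, by 0.66 (SE 0.23, adjusted p = 0.0283), and stood at 0.34 (SE 0.23, adjusted p = 0.207) in Col-0. AT3G50070 was higher in roots in Col-0, by 0.47 (SE 0.17, adjusted p = 0.0420), and stood at 0.33 (SE 0.17, adjusted p = 0.108) in OE-SAUR41. Both genes turned sign in both genotypes, under TMM scaling and under quantile normalization.

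CYCD1;1 (AT1G70210), known from the start of divisions at germination, had 9.20 and 8.51 FPKM in OE-SAUR41 roots and 10.9 and 9.99 FPKM in Col-0 roots, against 8.54 and 9.86 FPKM in OE-SAUR41 shoots and 24.2 and 12.2 FPKM in Col-0 shoots. The change was -0.05 (SE 0.32, adjusted p = 0.898) in OE-SAUR41 and -0.67 (SE 0.32, adjusted p = 0.0943) in Col-0, and under TMM scaling and quantile normalization it was called lower in roots in both genotypes. CYCD4;1 (AT5G65420), which acts in the pericycle and in the stomatal lineage, had 7.09 and 4.17 FPKM in OE-SAUR41 roots and 5.81 and 5.47 FPKM in Col-0 roots, against 0.929 and 0.464 FPKM in OE-SAUR41 shoots and 3.71 and 1.85 FPKM in Col-0 shoots. It was higher in roots in OE-SAUR41, by 1.95 (SE 0.36, adjusted p = 0.00235), and stood at 0.86 (SE 0.36, adjusted p = 0.0681) in Col-0. Its relative CYCD4;2 (AT5G10440) was low throughout, with 2.33 and 1.81 FPKM in OE-SAUR41 roots and 1.38 and 1.21 FPKM in Col-0 roots, against 0.439 and 0.945 FPKM in OE-SAUR41 shoots and 1.54 and 1.33 FPKM in Col-0 shoots. Root over shoot was 0.87 (SE 0.24, adjusted p = 0.0114) in OE-SAUR41, with the sign turned under quantile normalization, and -0.09 (SE 0.24, adjusted p = 0.754) in Col-0. CYCD5;1 (AT4G37630), linked to endoreduplication, had 7.66 and 5.35 FPKM in OE-SAUR41 roots and 5.20 and 4.99 FPKM in Col-0 roots, against 1.47 and 1.94 FPKM in OE-SAUR41 shoots and 4.10 and 2.80 FPKM in Col-0 shoots, with changes of 1.46 (SE 0.30, adjusted p = 0.00366) in OE-SAUR41 and 0.47 (SE 0.30, adjusted p = 0.195) in Col-0. Each root library of this gene lay above each shoot library. A pair of D-type cyclins has roles in single divisions. CYCD6;1 (AT4G03270), which acts in the division that separates cortex from endodermis in the root, was at 0.994 to 1.68 FPKM in the 4 root libraries, against 0.751 to 2.45 FPKM in the 4 shoot libraries, and was not called in either genotype on FPKM. Under quantile normalization it was called lower in OE-SAUR41 roots, at -1.27 (adjusted p = 0.0204). CYCD7;1, which acts in the last division of the stomatal lineage, was not listed in any root library and stood at 0.195 FPKM or less in the shoots.

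The A-type cyclins are led by CYCA3;2 (AT1G47210), of a subfamily expressed in S phase. It had 19.6 and 19.4 FPKM in OE-SAUR41 roots and 22.2 and 20.3 FPKM in Col-0 roots, against 4.32 and 5.31 FPKM in OE-SAUR41 shoots and 12.7 and 6.96 FPKM in Col-0 shoots. It was higher in roots by 1.82 (SE 0.29, adjusted p = 0.00116) in OE-SAUR41 and 1.09 (SE 0.29, adjusted p = 0.0139) in Col-0. CYCA1;1 (AT1G44110), a cyclin of G2 and mitosis, had 12.2 and 10.8 FPKM in OE-SAUR41 roots and 10.3 and 9.40 FPKM in Col-0 roots, against 2.75 and 3.23 FPKM in OE-SAUR41 shoots and 8.72 and 4.37 FPKM in Col-0 shoots, with changes of 1.65 (SE 0.33, adjusted p = 0.00303) in OE-SAUR41 and 0.59 (SE 0.33, adjusted p = 0.141) in Col-0. The A2 cyclins work with CDKB1 kinases to hold back endoreduplication. Of these, CYCA2;4 (AT1G80370) had 11.3 and 10.8 FPKM in OE-SAUR41 roots and 10.6 and 9.17 FPKM in Col-0 roots, against 2.40 and 3.10 FPKM in OE-SAUR41 shoots and 5.24 and 3.26 FPKM in Col-0 shoots, and was higher in roots by 1.69 (SE 0.29, adjusted p = 0.00161) in OE-SAUR41 and 1.07 (SE 0.29, adjusted p = 0.0145) in Col-0. CYCA2;3 (AT1G15570) had 10.02 and 7.19 FPKM in OE-SAUR41 roots and 8.95 and 8.41 FPKM in Col-0 roots, against 3.27 and 4.39 FPKM in OE-SAUR41 shoots and 8.04 and 6.02 FPKM in Col-0 shoots. Here root and shoot overlapped: Col-0 shoot 1 lay above OE-SAUR41 root 2. The change was 0.99 (SE 0.29, adjusted p = 0.0152) in OE-SAUR41, where it turned sign under both scalings, and 0.28 (SE 0.29, adjusted p = 0.401) in Col-0. CYCA3;1 (AT5G43080) was at 1.85 to 3.44 FPKM in the 4 root libraries, against 0.765 to 2.28 FPKM in the 4 shoot libraries, and was called in OE-SAUR41 (1.00, SE 0.29, adjusted p = 0.0150, with the sign turned under quantile normalization) but not in Col-0 (0.32, SE 0.29, adjusted p = 0.342). CYCA2;1 (AT5G25380) was at 0.741 to 1.51 FPKM in the roots. Neither OE-SAUR41 shoot file lists it, while the Col-0 shoots had 0.610 and 0.288 FPKM, and it was called in OE-SAUR41 (1.02, SE 0.22, adjusted p = 0.00446) and in Col-0 (0.67, SE 0.22, adjusted p = 0.0315, with the sign turned under quantile normalization). For this gene, too, the filter built in a root excess.

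CDKA;1, the kinase that partners D-type cyclins and acts through the whole cycle, had 22.8 and 22.4 FPKM in OE-SAUR41 shoots and 29.3 and 20.3 FPKM in Col-0 shoots, below each root library. It was higher in roots by 1.02 (SE 0.20, adjusted p = 0.00320) in OE-SAUR41 and 0.93 (SE 0.20, adjusted p = 0.00603) in Col-0, and both signs turned under TMM scaling. The CDKB1 kinases act at the entry into mitosis and in the stomatal lineage. CDKB1;1 (AT3G54180) had 22.0 and 21.4 FPKM in OE-SAUR41 roots and 22.8 and 18.1 FPKM in Col-0 roots, against 9.94 and 11.4 FPKM in OE-SAUR41 shoots and 8.91 and 11.0 FPKM in Col-0 shoots, with Col-0 shoot 1 the lowest shoot library. Its changes were 0.96 (SE 0.22, adjusted p = 0.00540) in OE-SAUR41 and 0.97 (SE 0.22, adjusted p = 0.00703) in Col-0. CDKB1;2 (AT2G38620) was higher in roots too, with 1.18 (SE 0.28, adjusted p = 0.00611) in OE-SAUR41 and 0.93 (SE 0.28, adjusted p = 0.0208) in Col-0, at 11.1 and 10.3 FPKM in OE-SAUR41 roots and 13.3 and 10.4 FPKM in Col-0 roots, against 5.15 and 3.33 FPKM in OE-SAUR41 shoots and 5.68 and 5.67 FPKM in Col-0 shoots. Under TMM scaling both CDKB1 genes turned sign in both genotypes, and under quantile normalization in OE-SAUR41. The CDKB2 kinases are needed for the shoot meristem. CDKB2;2 (AT1G20930) had 13.4 and 12.8 FPKM in OE-SAUR41 roots and 13.2 and 13.5 FPKM in Col-0 roots, against 3.56 and 3.65 FPKM in OE-SAUR41 shoots and 7.86 and 4.75 FPKM in Col-0 shoots, with changes of 1.61 (SE 0.27, adjusted p = 0.00156) in OE-SAUR41 and 1.01 (SE 0.27, adjusted p = 0.0151) in Col-0. CDKB2;1 (AT1G76540) differed from it: at 26.4 and 21.7 FPKM in OE-SAUR41 roots and 27.9 and 23.3 FPKM in Col-0 roots, against 14.0 and 21.1 FPKM in OE-SAUR41 shoots and 18.8 and 18.6 FPKM in Col-0 shoots, it was not called in either genotype on FPKM, and under TMM scaling it was called lower in OE-SAUR41 roots. The files give this gene and AT2G38620 a locus shared with another gene, so their values are uncertain.

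Of the 3 genes of mitosis and cytokinesis, KNOLLE (AT1G08560, chromosome 1, 2709632 to 2710912), the syntaxin of the forming cell plate, had 38.5 and 32.4 FPKM in OE-SAUR41 roots and 37.2 and 32.5 FPKM in Col-0 roots, against 7.74 and 9.53 FPKM in OE-SAUR41 shoots and 31.6 and 9.23 FPKM in Col-0 shoots. The first Col-0 shoot library was near the root level, and the other 3 shoot libraries were near each other. Root over shoot was 1.92 (SE 0.48, adjusted p = 0.00766) in OE-SAUR41 and 0.97 (SE 0.48, adjusted p = 0.103) in Col-0. CDC20.1 (AT4G33270), which activates the anaphase-promoting complex, had 21.1 and 14.8 FPKM in OE-SAUR41 roots and 19.9 and 19.7 FPKM in Col-0 roots, against 5.84 and 5.59 FPKM in OE-SAUR41 shoots and 15.1 and 8.77 FPKM in Col-0 shoots, with changes of 1.47 (SE 0.30, adjusted p = 0.00327) in OE-SAUR41 and 0.73 (SE 0.30, adjusted p = 0.0603) in Col-0. Its first Col-0 shoot library lay just above its lowest root library, OE-SAUR41 root 2. AUR1 (AT4G32830), an Aurora kinase of the spindle, had 15.5 and 11.0 FPKM in OE-SAUR41 roots and 15.02 and 15.3 FPKM in Col-0 roots, against 7.68 and 6.97 FPKM in OE-SAUR41 shoots and 8.77 and 5.58 FPKM in Col-0 shoots. It was called in both genotypes, at 0.76 (SE 0.28, adjusted p = 0.0380) in OE-SAUR41 and 1.01 (SE 0.28, adjusted p = 0.0164) in Col-0, and in OE-SAUR41 the sign turned under both scalings.

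The count of calls in Col-0 moved with single libraries. With all libraries it was 19. Leaving out Col-0 root 1 gave 4 called members, where 39.6% of all genes were called, leaving out Col-0 root 2 gave 5 (41.8% of all genes), leaving out Col-0 shoot 1 gave 26 (82.5% of all genes), and leaving out Col-0 shoot 2 gave 17 (65.5% of all genes). The members' median log2 fold change moved less when a root library was left out, at 0.85 without the first and 1.00 without the second, against 0.95 with all libraries.

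The next question the design puts is whether SAUR41 overexpression goes with other levels of these genes. In roots 0 of 32 members were called between OE-SAUR41 and Col-0, where 0.00503% of all genes were called, and 0 members had an unadjusted p under 0.05. The members' median log2 fold change was -0.02, against -0.03 over all genes, with 13 members above 0 and 19 below. Summed over the members, OE-SAUR41 roots had 491.7 and 443.1 FPKM, against 497.3 and 446.2 FPKM in Col-0 roots, a ratio of the means of 0.991. The B-type sum was 98.0 and 73.1 FPKM in OE-SAUR41 roots, against 90.5 and 83.3 FPKM in Col-0 roots, and the D-type sum was 142 and 147 FPKM in OE-SAUR41 roots, against 152 and 133 FPKM in Col-0 roots, so the genotypes overlapped in both. Root meristem markers were close as well, with sums of 13.9 and 13.8 FPKM in OE-SAUR41 roots, against 12.7 and 13.6 FPKM in Col-0 roots.

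Among the single genes in roots, log2 fold changes ran between -0.25 for CYCB2;2 and 0.42 for CYCD4;2. The 95% interval of the D-type gene was -0.14 to 0.97, and in it both OE-SAUR41 root libraries lay above both Col-0 root libraries, as they did in CYCA1;1, CYCA2;4 and CYCD5;1. These are 4 of 32 members (12.5%), against 11.5% of all genes. Both OE-SAUR41 libraries lay below both Col-0 libraries in CYCA3;2 and CYCD1;1, 2 of 32 (6.25%), against 19.6% of all genes. The 95% intervals of the members' changes reached from -1.36 to 1.32, so for the widest of them changes of more than 2-fold in either direction could not be told from 0 with 2 libraries a group. For CYCD3;2 the interval was -0.41 to 0.44, and for CDKA;1 it was -0.50 to 0.46.

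In shoots, 0 of 32 members were called between OE-SAUR41 and Col-0, where 0.0201% of all genes were called. At an unadjusted p under 0.05 there were 11 of 32 members, all with lower values in OE-SAUR41, and 2790 of the 19863 genes. With library weights, 0 members and 824 of all genes had an unadjusted p under 0.05. The members' median log2 fold change was -0.24 without Col-0 shoot 1, against -0.03 over all genes. Without Col-0 shoot 2 it was -0.82, against -0.58 over all genes. It was -0.58 without OE-SAUR41 shoot 1, against -0.31 over all genes, and -0.62 without OE-SAUR41 shoot 2, against -0.33. With all libraries, the members' log2 fold changes had a median of -0.56, against -0.32 over all genes, and 28 of 32 were below 0. Under TMM scaling 22 of 32 were below 0, and under quantile normalization 20 were. Set against the median of all genes, the members' median was -0.24, and it was -0.37 to -0.13 over the 21 ways of processing. By class, the relative medians were -0.39 for the A-type, -0.26 for the B-type and -0.22 for the D-type cyclins, -0.58 for the 3 mitotic genes, 0.08 for the CDKB kinases and 0.22 for CDKA;1. Over the 21 ways of processing they were -0.57 to -0.17 for the A-type, -0.40 to 0.03 for the B-type and -0.47 to -0.06 for the D-type cyclins, -0.70 to -0.07 for the mitotic genes and -0.19 to 0.34 for the CDKB kinases, so the B-type and CDKB medians changed sign. Both OE-SAUR41 shoot libraries lay below both Col-0 shoot libraries in 19 of 32 members (59.4%), against 32.5% of all genes, and above both in 1, CYCD3;3 (3.12%), against 7.26% of all genes.

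**Figure D4:**
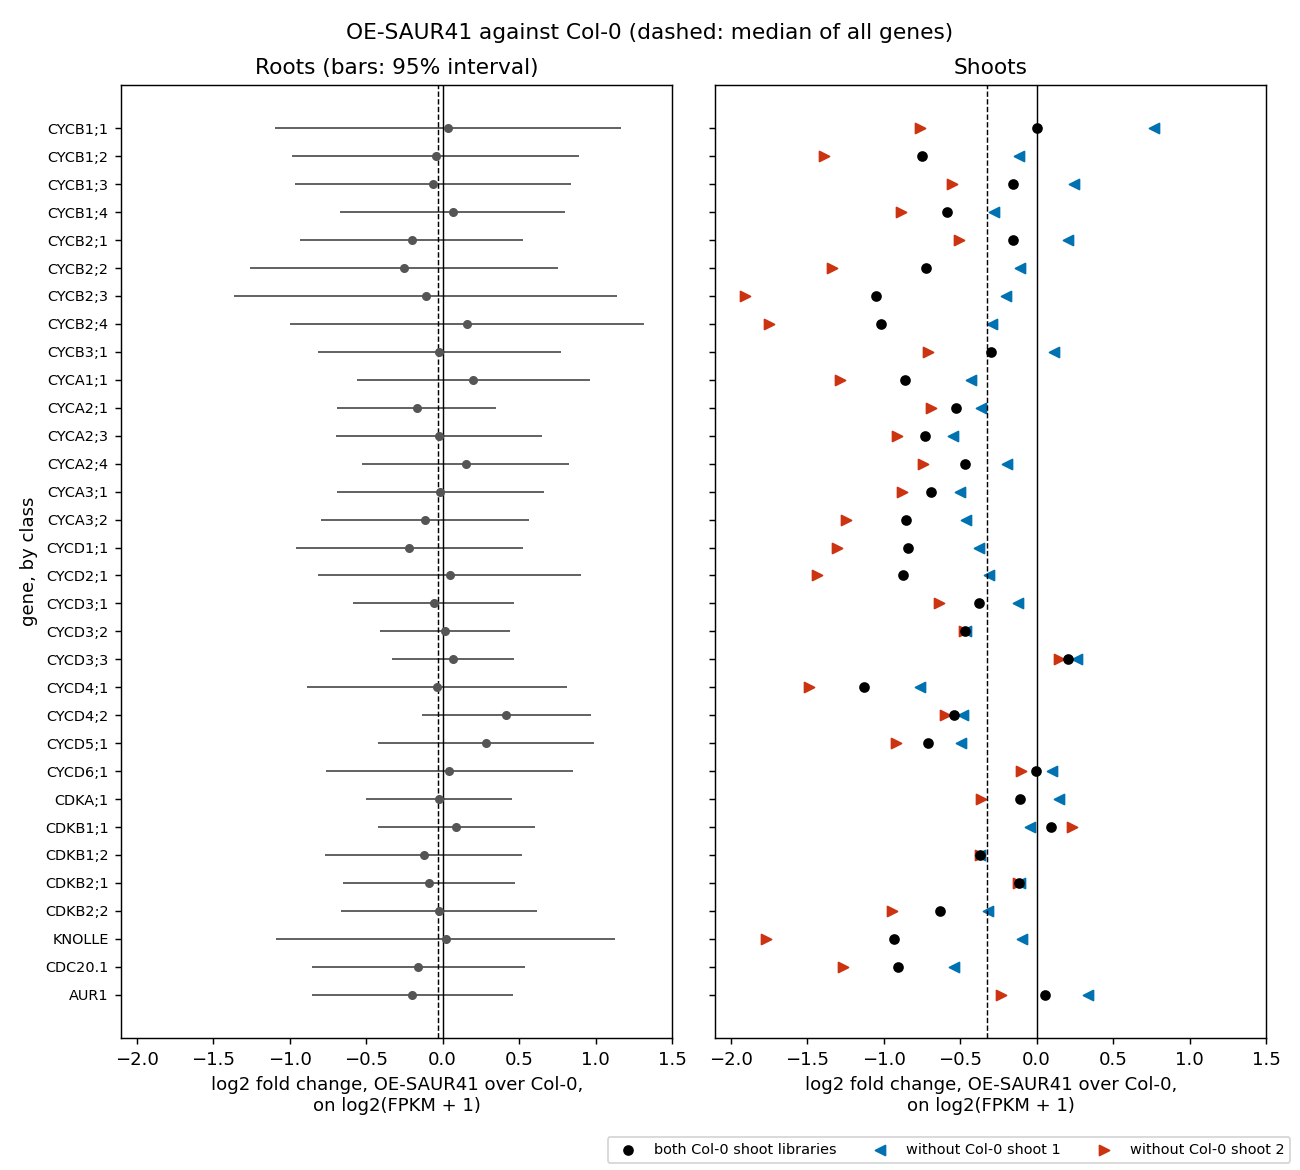
Log2 fold change of OE-SAUR41 over Col-0 on log2(FPKM + 1) for each tested member (rows, grouped by class), in roots with 95% intervals from limma (left) and in shoots with both Col-0 shoot libraries and without each of them (right), the dashed line being the median of all genes. In roots the points lie within -0.25 and 0.42, and in shoots the markers without Col-0 shoot 2 lie left of those without Col-0 shoot 1 for most genes, with CYCD3;2 among the genes where they coincide.

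Individual members with the lowest log2 fold changes in shoots were CYCD4;1 at -1.12 (SE 0.36, adjusted p = 0.291), CYCB2;3 at -1.05 (SE 0.54, adjusted p = 0.397), CYCB2;4 at -1.02 (SE 0.50, adjusted p = 0.388), KNOLLE at -0.93 (SE 0.48, adjusted p = 0.397), CDC20.1 at -0.90 (SE 0.30, adjusted p = 0.30) and CYCD2;1 at -0.87 (SE 0.37, adjusted p = 0.353). The values above 0 were 0.21 for CYCD3;3 (SE 0.17, adjusted p = 0.525), 0.09 for CDKB1;1 (SE 0.22, adjusted p = 0.837), 0.05 for AUR1 (SE 0.28, adjusted p = 0.941) and 0.003 for CYCB1;1 (SE 0.48, adjusted p = 1.0). None of these passed the test.

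How far the shoots of the genotypes lay apart went with the Col-0 library they were set against. Without Col-0 shoot 1, the OE-SAUR41 shoots had 0 called members, where 1.80% of all genes were called, with a median log2 fold change of -0.24 and 24 of 32 members below 0. Without Col-0 shoot 2, 19 members were called, all lower in OE-SAUR41, where 45.8% of all genes were called lower, and the median was -0.82. CYCB1;1 went with the library left out in sign as well, at 0.77 with the first Col-0 library removed and -0.76 with the second removed. KNOLLE was at -0.09 with the first removed and -1.77 with the second removed. CYCD3;2 differed from these. Its log2 fold change of -0.47 (SE 0.18, adjusted p = 0.336) held with either Col-0 library left out, at -0.46 with the first and -0.48 with the second removed: both Col-0 shoot libraries had about 54 FPKM and both OE-SAUR41 shoot libraries about 39 FPKM. It did rest on the scaling, and was -0.03 under TMM scaling, -0.03 with a correction for gene span and -0.25 under quantile normalization. CYCD4;1 kept the sign with a different size, at -0.76 with the first Col-0 library removed and -1.49 with the second removed. Over all genes, the log2 difference of Col-0 shoot 1 minus Col-0 shoot 2 was larger for genes of longer span (Spearman's rho of 0.605 across 19675 genes, which are not independent replicates). With a correction for span, 0 members were called, where 0.730% of all genes were, and 10 of 32 lay above 0. The members' median was then -0.28, or -0.29 relative to all genes.

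Markers of tissues with dividing cells were read in the shoots too, with no test. Summed over 4 genes of the stomatal lineage, OE-SAUR41 shoots had 20.5 and 19.1 FPKM, against 29.3 and 25.2 FPKM in Col-0 shoots. Within that list, SPCH, which starts the lineage, had 1.14 and 1.10 FPKM in OE-SAUR41 shoots, against 4.66 and 2.03 FPKM in Col-0 shoots, FAMA had 2.12 and 1.69 FPKM in OE-SAUR41 shoots, against 9.44 and 2.15 FPKM in Col-0 shoots. The genotypes overlapped in the other two. MUTE had 0.354 and 0.492 FPKM in OE-SAUR41 shoots, against 0.929 and 0.484 FPKM in Col-0 shoots, and TMM had 16.9 and 15.9 FPKM in OE-SAUR41 shoots, against 14.3 and 20.5 FPKM in Col-0 shoots. STM, a gene of the shoot meristem, went the other way, with 7.13 and 8.02 FPKM in OE-SAUR41 shoots, against 3.997 and 3.79 FPKM in Col-0 shoots. The other shoot meristem genes were near 0, with CLV3 not listed in any library and WUS at 0.0393 FPKM in Col-0 shoot 1 alone. The part of these tissues in the members' values was not tested.

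Whether the genotype difference itself differed between roots and shoots was tested as the difference of the 2 contrasts. It was called for 0 of 32 members, where 0.00% of all genes were called, and 1 member, CYCD4;2, had an unadjusted p under 0.05, as did 948 of all genes. The members' median was 0.61, against 0.30 over all genes. Without Col-0 shoot 2, 13 members were called higher in this difference, where 32.1% of all genes were, and without Col-0 shoot 1 there were 0, where 0.00503% of all genes were called.

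Another 60 genes of the cell cycle, none of them a member, were read in the same fit: the remaining cyclins, inhibitors and activators of the kinases, the retinoblastoma and E2F genes, MYB3R factors, activators of the anaphase-promoting complex, and genes of replication, mitosis and cytokinesis. Of these, 58 were tested. Between the genotypes, 0 of 58 were called in roots, where 33 lay above 0 and 25 below, and 0 of 58 in shoots, where 5 lay above 0 and 53 below. At an unadjusted p under 0.05 there were 0 of 58 in roots, where 340 of all 19863 genes were. In shoots there were 7 of 58, where 2790 of all 19863 genes were. Under TMM scaling 43 of the 58 lay below 0 in shoots, and under quantile normalization 40 did. On FPKM the median in shoots was -0.24 relative to all genes. Without Col-0 shoot 1 it was -0.06, with 24 genes above 0 and 34 below. Without Col-0 shoot 2 it was -0.43, with 5 genes above 0 and 53 below.

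Between the tissues, 48 of the 58 were higher in roots and 1 was lower in OE-SAUR41, and 26 were higher and 2 lower in Col-0. These counts are to be read against 66.0% of all genes called higher in OE-SAUR41 and 52.7% in Col-0. Some of the 58 had under 2 shoot libraries at 1 FPKM and passed the filter through their roots. For these a root excess was built in. They are AT1G73690, E2F1, ICK5, MYB3R-5, CCS52A2, CDC6, MCM3, HIK, TES, EDE1, BUBR1 and AUR3. CYCA1;2 passed through its shoots. TMM scaling gave 14 higher and 9 lower in OE-SAUR41 and 2 higher and 5 lower in Col-0, and quantile normalization gave 10 higher and 10 lower in OE-SAUR41 and 2 higher and 6 lower in Col-0. The median log2 fold change of the 58, relative to that of all genes, was 0.39 in OE-SAUR41 and 0.17 in Col-0. In OE-SAUR41 it became 0.30 with the first root library left out and 0.45 with the second left out. Dropping a shoot library there gave 0.36 for the first and 0.34 for the second. In Col-0 it became 0.19 when the first root library was dropped and 0.13 when the second was. Dropping the first shoot library of Col-0 gave 0.41, while dropping the second turned the sign, at -0.23. Among the called genes, the 4 largest rises in OE-SAUR41 roots were of KEU, a partner of KNOLLE, at a log2 fold change of 2.94 (SE 0.64, adjusted p = 0.00450), CDT1A, which licenses replication origins, at 2.88 (SE 0.47, adjusted p = 0.00130), TOPII, a topoisomerase, at 2.74 (SE 0.73, adjusted p = 0.0106) and MCM2, of the replicative helicase, at 2.58 (SE 0.67, adjusted p = 0.00963). In Col-0 roots the 4 largest among the called genes were of KEU, at 2.63 (SE 0.64, adjusted p = 0.00950), the kinase inhibitor SIM, at 1.99 (SE 0.34, adjusted p = 0.00187), CDC20.2, at 1.64 (SE 0.40, adjusted p = 0.00979) and the CDK-activating kinase gene AT1G73690, at 1.52 (SE 0.29, adjusted p = 0.00293). The gene lower in roots in both genotypes was TSO2, a subunit of ribonucleotide reductase, at -1.51 (SE 0.21, adjusted p = 0.000604) in OE-SAUR41 and -1.24 (SE 0.21, adjusted p = 0.00179) in Col-0, and the kinase inhibitor LGO was lower in Col-0 roots, at -0.96 (SE 0.31, adjusted p = 0.0284). TSO2 had 52.4 and 63.4 FPKM in OE-SAUR41 roots and 67.1 and 48.3 FPKM in Col-0 roots, against 166 and 166 FPKM in OE-SAUR41 shoots and 122 and 151 FPKM in Col-0 shoots. The locus of KEU is shared with another gene in the files, so its values are uncertain.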

How the data were processed

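Per the labels' protocols, RNA extracted with TRIzol from root or shoot parts was sequenced by Illumina HiSeq. Each library has 1 file of FPKM values per gene, which the authors computed, per the file headers, on the TAIR10 build, as the submitters' processing notes record. The sources used here name no aligner, quantifier or strand setting. The files hold no 0, so a gene not listed was taken as 0, and 3 genes with over 100 FPKM beside an unlisted library of their group were left out. Among genes with a locus of their own, 5694 starts were 1 below those of a RefSeq table of gene names (TAIR10.1) and 121 were equal. The rest differed otherwise, and 1 was added to each start. Gene spans are those of the RefSeq table and can differ from the coordinates printed, as for CYCD3;2 with a span of 3459 bases. That table gave the names of the members and no sequences are shown. Depth is unknown, so no counting error can be given, and the 2 libraries a group limit the precision.

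A total of 19863 genes reached 1 FPKM in 2 or more libraries and entered 1 limma fit of log2(FPKM + 1) with 4 group means (limma 3.58.1, R 4.3.3, empirical Bayes with a trend). Fold changes on that scale understate those of low genes. All 5 contrasts were adjusted by Benjamini-Hochberg over all genes, and the fit was tested on simulated data. With 2 libraries against 2, an exact permutation test cannot reach a p of 0.05, so none was used. Class sums and medians are descriptions without a test. The members, the lists of other genes and the markers were chosen with earlier results of these data known. All members are named, with the called ones and up to 6 each way with the widest changes given in every library, and of the other cell cycle genes up to 4 called each way per contrast. Alternatives were other pseudocounts (0.1 and 5), leaving out the filter or setting it at 5 FPKM, TMM scaling (trimming 30% of ratios and 5% of levels), quantile normalization, a lowess correction for gene span, no trend, a robust fit, library weights, the libraries of the contrast alone, a replicate block and leaving out each library. Tables were handled in pandas 2.3.3 with numpy 2.4.6 and drawn with matplotlib 3.10.9 (Python 3.11.15).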

Additional observations from a re-analysis of the deposited data

How the results depend on the processing

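Between the genotypes in roots, 0 members were called under every alternative run. In shoots and in the difference between the tissues the counts were 0 to 19 and 0 to 13 when each library was left out. For root against shoot in OE-SAUR41, 27 of 32 members were called, where 15452 of all 19863 genes were. Under quantile normalization 10 members and 11009 of all genes were called, and under TMM scaling 12 members and 10705 of all genes. The members' median relative to all genes, 0.19, was 0.53 without a filter and 0.0096 without OE-SAUR41 root 1, the lowest value of those tried. For root against shoot in Col-0, 19 were called, 8 under quantile normalization, 5 under TMM scaling, 6 with library weights, 5 with the libraries of the contrast alone and 4 to 26 with each library left out.

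Signs of members called with or without the alternative turned as follows, and the cause was not tested. In OE-SAUR41, root over shoot under quantile normalization was -0.00013 for CYCB1;1, -0.069 for CYCB2;1, -0.30 for CYCA2;3, -0.27 for CYCA3;1, -0.19 for CYCD3;1, -0.35 for CYCD4;2, -0.023 for CDKB1;1, -0.074 for CDKB1;2 and -0.37 for AUR1. Under TMM scaling it was -0.26 for CYCA2;3, -0.74 for CYCD3;1, -1.08 for CYCD3;3, -0.40 for CDKA;1, -0.41 for CDKB1;1, -0.087 for CDKB1;2, -0.94 for CDKB2;1 and -0.57 for AUR1. In Col-0 it was -0.21 for CYCA2;1 and -0.11 for CYCD3;3 under quantile normalization, and -0.66 for CYCD3;1, -0.53 for CYCD3;3, -0.082 for CDKA;1, -0.016 for CDKB1;1 and -0.0058 for CDKB1;2 under TMM scaling. Among members called neither way, another 2 turned in OE-SAUR41 and 7 in Col-0 under quantile normalization, and 0 in OE-SAUR41 and 7 in Col-0 under TMM scaling. In shoots, OE-SAUR41 over Col-0 for CYCB1;1 was 0.003 with all libraries, and it turned to -0.76 when Col-0 shoot 2 was left out (0.77 when Col-0 shoot 1 was).

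Whether replicate numbers pair the libraries could not be told, since only the difference between the 2 libraries of each group can be compared. Over genes, deviations of same-numbered libraries correlated at 0.076 between the genotypes in roots and -0.005 in shoots. Between the tissues they correlated at -0.008 in OE-SAUR41 and -0.218 in Col-0. Between groups that no contrast sets directly against each other they correlated at 0.459 (OE-SAUR41 root and Col-0 shoot) and 0.018 (Col-0 root and OE-SAUR41 shoot). With the shoot numbers crossed, an alternative added after seeing the data, 26 members were called between the tissues in OE-SAUR41 and 17 in Col-0. Of all 19863 genes, 15011 were called there in OE-SAUR41 and 12308 in Col-0. Between the genotypes 0 members were called, where 1 gene was in roots and 1 in shoots. With the replicate block, 0 members were called between the genotypes in roots, in shoots and in their difference. Between the tissues 27 members were called in OE-SAUR41, where 15563 of all genes were, and 21 in Col-0, where 13522 were. With 2 libraries a group, 95% intervals of the genotype changes reached from -1.36 to 1.32 in roots and from -2.30 to 1.13 in shoots, which limits what a missing call says.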

Other observations

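The replication genes outside the 33 differed in how far the Col-0 shoot libraries lay apart. MCM2, MCM3, MCM5 and MCM6 encode subunits of the helicase that opens DNA in S phase, and their genes span 4058 to 4540 bases. MCM2 had 1.68 and 1.28 FPKM in OE-SAUR41 shoots, against 10.2 and 1.13 FPKM in Col-0 shoots. MCM3 had 0.931 and 0.891 FPKM in OE-SAUR41 shoots, against 8.83 and 0.668 FPKM in Col-0 shoots. In both, Col-0 shoot 1 stood near the 4 root libraries, which had 10.7 to 15.6 FPKM of MCM2 and 7.91 to 11.1 FPKM of MCM3, and Col-0 shoot 2 stood near the OE-SAUR41 shoots. PCNA1, the sliding clamp of the same process, spans 1517 bases and had 17.3 and 21.9 FPKM in OE-SAUR41 shoots, against 23.0 and 22.3 FPKM in Col-0 shoots, so its libraries lay close together. PCNA2, which spans 1848 bases, had 18.5 and 15.5 FPKM in OE-SAUR41 shoots, against 30.1 and 14.5 FPKM in Col-0 shoots, so its Col-0 libraries lay apart as well. The locus of PCNA2 is shared with another gene in the files. These genes were chosen after their values were seen, and 0 of the 11 replication genes were called between the genotypes in shoots.

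Among the kinase inhibitors, which slow the cycle or turn it to endoreduplication, SIM and LGO had the pattern of Col-0 shoot 1 below Col-0 shoot 2. SIM had 8.34 and 10.2 FPKM in OE-SAUR41 shoots, against 8.86 and 17.1 FPKM in Col-0 shoots, and LGO had 14.3 and 17.5 FPKM in OE-SAUR41 shoots, against 20.5 and 34.7 FPKM in Col-0 shoots. Both genes are short, at 792 and 826 bases. The other inhibitors had Col-0 shoot 1 above Col-0 shoot 2, and short genes were among them. AT1G08180 (958 bases) had 3.97 and 3.58 FPKM in Col-0 shoots, and KRP2 (1290 bases) had 3.27 and 1.31 FPKM. KNOLLE, a member of 1476 bases, had 31.6 and 9.23 FPKM there. The part of span in the values of single genes was not tested.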
